A study of Mus musculus with 5 samples.

Results

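The genes described here are 10 genes of glucose uptake, glycolysis and lactate formation: the glucose transporter gene Slc2a1, the hexokinase genes Hk1 and Hk2, the phosphofructokinase genes Pfkl and Pfkp, the aldolase genes Aldoa and Aldoc, the triosephosphate isomerase gene Tpi1, and the lactate dehydrogenase genes Ldha and Ldhb. They were chosen by symbol, with earlier results of the same comparison known, and all 10 were found among the 24347 symbols of the deposited tables, as 18 of 34535 transcripts. RNA was sequenced from 2 groups of small sorted pools of cells from precancerous mammary lesions of mice. Both groups came from MMTV-Wnt-1 transgenic mice on a mixed FVB, SJL and C57BL/6 background, in which the viral MMTV promoter drives Wnt-1 in the mammary epithelium; no treatment is named and the age at collection is not given in the sources used here. The first group, Krt6a+, was labelled as keratin 6a positive precancerous stem cells and had 2 libraries, numbered 2 and 3. The second, WAP+, was labelled as cells positive for whey acidic protein, a milk protein, and had 3 libraries, numbered 1 to 3. Each library came from a small pool of cells sorted on TVA, the receptor for an avian retrovirus, using an antibody, and what put TVA on either population is not stated. Levels are FPKM, in which fragments are counted relative to transcript length and to the mapped total. Comparisons between genes are limited where reads are shared with copies or an estimate failed, as taken up for Gapdh and Eno1 below. The question of the series was how expression differs between the Krt6a+ and WAP+ cells.

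Glycolysis turns glucose into pyruvate in the cytosol, and lactate dehydrogenase turns pyruvate into lactate and back. Many steps are served by isozymes from separate genes, whose proteins differ in kinetics, in regulation and in the tissues that use them. In the lactating mammary gland glucose is also a precursor of lactose and of milk fat, and Slc2a1 encodes the main glucose transporter of that tissue. The lactate dehydrogenase enzyme is a tetramer of A subunits, encoded by Ldha, and B subunits, encoded by Ldhb, and the A form is the one prominent in strongly glycolytic cells.

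The libraries held 8112 to 8900 genes at FPKM 1 or more, and the deposited coverage amounted to 290 to 385 megabases of transcript per library. Krt6a had FPKM 1380 and 1133 in Krt6a+ libraries, against 168, 50.01 and 120 in WAP+ libraries, while Wap was listed at 0 in both Krt6a+ libraries and had 50.1, 126 and 13.9 in WAP+ libraries, so both genes followed the labels. The summed FPKM of 5 luminal markers (Krt8, Krt18, Krt19, Epcam and Cdh1) was 1414 and 3780 in Krt6a+ libraries 2 and 3 and 7883 to 9011 in WAP+ libraries. The sum of 4 basal markers (Krt5, Krt14, Krt17 and Trp63) was 2930 and 3342 in Krt6a+ and 201 to 1290 in WAP+ libraries. The luminal and basal marker sums thus moved with the groups, although Cdh1 and Krt17 taken singly overlapped between them. The part of epithelial makeup in each difference below was not tested. Of other cell types, 5 of 7 immune markers, Ptprc among them, were at 0 in all libraries, with sums of 6.49 to 17.8 in Krt6a+ and 10.1 to 26.4 in WAP+ libraries, carried by Cd68. Of 4 granulocyte markers 3 were at 0 throughout, and S100a9 was at 0 in Krt6a+ and 9.81 to 116 in WAP+ libraries. Of 5 adipocyte markers 4, Adipoq among them, were at 0 throughout, and Fabp4 was at 0 in Krt6a+ and 20.3 to 2188 in WAP+ libraries. Of 4 erythroid markers 3 were at 0 throughout, with sums of 0 in Krt6a+ and at most 0.15 in WAP+ libraries. Sums of 4 endothelial markers were at most 0.74 in Krt6a+ and 8.33 in WAP+ libraries, none at 0 throughout, and those of 5 fibroblast markers were 57.5 and 210 against 8.596 to 82.0, carried by Dcn. Of 5 proliferation markers 1 was at 0 throughout, and their sum was 0.205 and 2.83 in Krt6a+ libraries and 6.70 to 15.4 in WAP+ libraries. In pools of cells, fewer cells that express a gene and less RNA per cell cannot be told apart.

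Within every library Aldoa had the highest FPKM of the 10 genes, and Ldha and Tpi1 took the next 2 places. Below them the order differed between the populations. Ldhb was 7th and 9th in Krt6a+ libraries and 4th, 4th and 5th in WAP+ libraries. Aldoc was 10th in both Krt6a+ libraries and 5th to 7th in WAP+ libraries, where Pfkl was 10th each time. Summed over the 10 genes, the scaled FPKM (FPKM divided by a factor per library) was 661 and 1099 in Krt6a+ libraries, against 1168, 931 and 1050 in WAP+ libraries, so the groups overlapped. The median log2 difference of the 10 genes, Krt6a+ minus WAP+, was -0.38, against -0.01 over all 9682 tested genes, and it was 0.15 without Krt6a+ library 2. On the scaled values 5 of the 10 were lower in both Krt6a+ libraries than in every WAP+ library, Hk1, Aldoa, Aldoc, Ldha and Ldhb, against 17.4% of all tested genes in that direction, and 0 were higher. On the deposited FPKM 3 of the 10 were lower without overlap, Hk1, Aldoc and Ldhb (15.0% of all tested genes), and 1, Pfkl, was higher (19.0%). Because the genes were chosen with this comparison in view, these counts describe them and support nothing further. The plot of levels by library shows the values behind these counts.

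**Figure D1:**
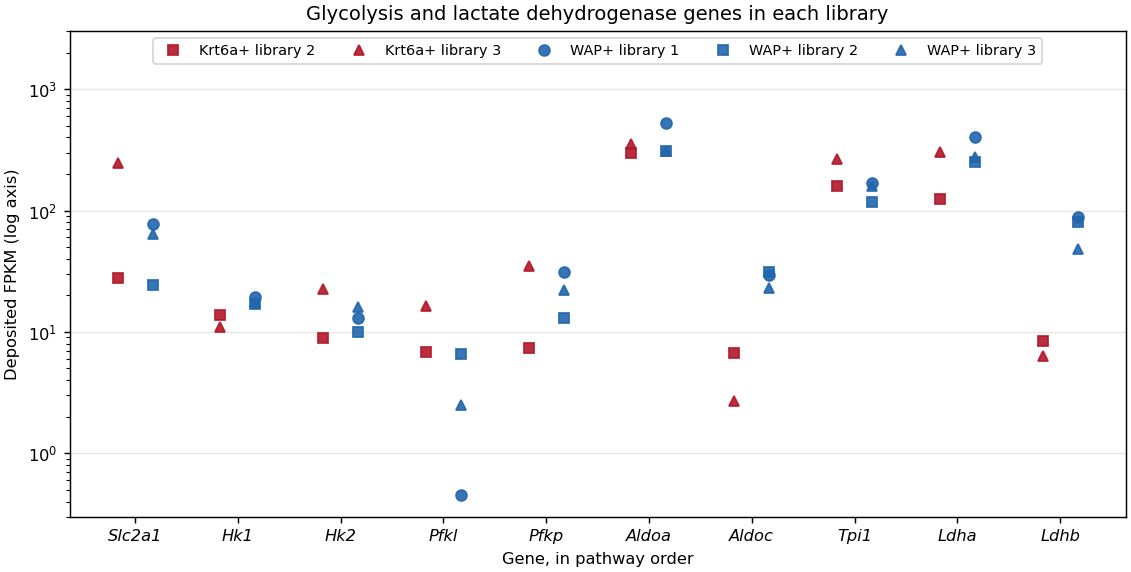
Deposited FPKM (log axis) of the 10 genes in pathway order, with 1 point per library; Krt6a+ libraries in red, WAP+ in blue, marker shape for the library number. Ldhb and Aldoc show the widest gap between the groups, and Slc2a1 shows a wide gap between the 2 Krt6a+ libraries (28.0 and 249).

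Glucose entry and its first phosphorylation showed no common direction. Slc2a1 (GLUT1; chromosome 4, 119108745 to 119137329, plus strand, mm10) had FPKM 28.0 and 249 in Krt6a+ libraries 2 and 3, against 77.8, 24.5 and 64.4 in WAP+ libraries. Krt6a+ library 3 held the highest value of all and library 2 the second lowest, so the groups overlapped. The deposited 95% bounds, 25.3 to 30.7 and 240 to 258, kept the 2 Krt6a+ libraries apart beyond counting error. The log2 difference was 0.62 ± 0.84 (SE) and became -0.82 without Krt6a+ library 3. Across the 10 genes the scaled value was higher in Krt6a+ library 3 than in library 2 for 7. The median ratio was 1.76, against 0.98 over all tested genes above 0 in both libraries, and Slc2a1 had the largest ratio, 7.72. Of the stress and immediate early markers Fos, Fosb, Jun, Junb, Egr1 and Atf3, all but Jun were higher in Krt6a+ library 3 than in library 2. Jun had FPKM 167 in library 2 and 113 in library 3. All of these markers together summed to FPKM 964 in Krt6a+ library 2, 2272 in library 3 and 995 to 1212 in WAP+ libraries. The luminal sum, given above, was also higher in Krt6a+ library 3, and the part of either was not tested.

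Hk1, the broadly expressed hexokinase, had FPKM 13.7 and 11.1 in Krt6a+ libraries, against 19.3, 16.9 and 17.5 in WAP+ libraries, which did not overlap. After scaling, Krt6a+ averaged 11.7 ± 2.92 (SD, n = 2) and WAP+ 18.2 ± 1.54 (SD, n = 3), and the log2 difference was -0.61 ± 0.47 (SE). All of its FPKM was given to NM_001146100 (chromosome 10, 62268855 to 62340421, minus strand), while NM_010438, whose span is longer, was at 0 in each library. Hk1os, an antisense gene, overlaps the span of Hk1, and the libraries do not mark strand, so reads in the shared stretch cannot be told apart; Hk1os was at 4.33 and 1.49 against 17.7, 0 and 0. Hk2, the inducible hexokinase, had 8.97 and 22.7 in Krt6a+ libraries, against 12.9, 10.02 and 16.1 in WAP+ libraries. The 2 Krt6a+ values lay on either side of all WAP+ values (log2 difference 0.04 ± 0.56 SE). Hk2 made up 39.5% and 67.2% of the summed hexokinase FPKM in Krt6a+ libraries, against 40.1%, 37.3% and 47.9% in WAP+ libraries.

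Phosphofructokinase commits sugar to glycolysis, and its liver-type and platelet-type genes were both low. Pfkl (chromosome 10, 77986949 to 78009796, minus strand) had FPKM 6.79 and 16.3 in Krt6a+ libraries, against 0.45, 6.62 and 2.50 in WAP+ libraries. The lowest Krt6a+ and highest WAP+ values differed by less than their bounds (5.75 to 7.83 and 5.54 to 7.69), and after scaling they overlapped. WAP+ library 1 stood lowest, with bounds of 0.13 to 0.77. The log2 difference, 1.64 ± 0.86 (SE), was the largest positive one of the 10. Pfkp had 7.40 and 34.8 in Krt6a+ libraries, against 30.9, 13.0 and 22.3 in WAP+ libraries, again with the Krt6a+ values on either side of all WAP+ values (log2 difference -0.45 ± 0.65 SE, and 0.50 without Krt6a+ library 2). Pfkl was 47.8% and 31.9% of the Pfkl and Pfkp sum in Krt6a+ libraries, against 1.43%, 33.6% and 10.04% in WAP+ libraries. The muscle-type gene Pfkm was at 0 in 4 libraries and at 1.49 in WAP+ library 3.

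Of the aldolases, which split the sugar into 3-carbon units, Aldoc had the larger difference. Aldoa, the muscle-type and most widely used aldolase (chromosome 7, 126795234 to 126800447, minus strand), had FPKM 296 and 351 in Krt6a+ libraries, against 528, 309 and 307 in WAP+ libraries. These deposited values overlapped; the scaled ones, 301 ± 5.96 (SD, n = 2) and 377 ± 66.6 (SD, n = 3), did not, and the log2 difference of -0.31 ± 0.33 (SE) became 0.16 under quantile normalization. Aldoc, the aldolase best known from brain (chromosome 11, 78323073 to 78327778, plus strand), had 6.68 and 2.70 in Krt6a+ libraries, against 29.5, 31.0 and 23.0 in WAP+ libraries. Each WAP+ value was more than 3 times the higher Krt6a+ value. After scaling, Krt6a+ averaged 4.52 ± 3.07 (SD, n = 2) and WAP+ 28.2 ± 4.55 (SD, n = 3), a log2 difference of -2.51 ± 0.55 (SE), 5.71-fold on the log2(FPKM + 1) scale. Aldoc was 2.21% and 0.76% of the summed aldolase FPKM in Krt6a+ libraries, against 5.30%, 9.12% and 6.95% in WAP+ libraries. Tpi1, which interconverts the 3-carbon units, had 160 and 266 in Krt6a+ libraries, against 170, 118 and 158 in WAP+ libraries, overlapping, with a log2 difference of 0.37 ± 0.36 (SE).

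Ldhb had the largest difference of the 10 genes. Its FPKM was 8.47 and 6.31 in Krt6a+ libraries, against 89.0, 80.5 and 48.1 in WAP+ libraries, so the lowest WAP+ library was more than 5 times the higher Krt6a+ library. For NM_001302765, the transcript that held most of it (chromosome 6, 142490249 to 142507957, minus strand), the deposited bounds were 6.00 to 10.9 and 4.18 to 8.44 in Krt6a+ libraries and started at 41.3 in the lowest WAP+ library. After scaling, Krt6a+ averaged 6.98 ± 2.11 (SD, n = 2) and WAP+ 72.4 ± 16.8 (SD, n = 3), a log2 difference of -3.20 ± 0.45 (SE), 9.20-fold on the log2(FPKM + 1) scale. Of the 10 genes it was the only one past the threshold of the comparison over all genes (limma, adjusted p under 0.05), which 0.692% of tested genes passed, 0.258% higher and 0.434% lower in Krt6a+; having been picked with these values known, it is given no p. It did not pass in 7 of 16 alternatives, namely without any 1 of the WAP+ libraries, with the replicate number as a block, without the mean-variance trend, with no filter and with a pseudocount of 0.1. Ldha (chromosome 7, 46845804 to 46855627, plus strand) had 125 and 306 in Krt6a+ libraries, against 401, 253 and 277 in WAP+ libraries. Krt6a+ library 2 was lowest and library 3 fell within the WAP+ range of deposited FPKM, though just under it after scaling (266 against 273 to 345). The log2 difference was -0.76 ± 0.41 (SE).

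Both lactate dehydrogenase genes were thus lower on average in Krt6a+ libraries, and Ldhb by more. Ldhb made up 6.37% and 2.02% of their summed FPKM in Krt6a+ libraries, 4.20% ± 3.07 (SD, n = 2), and 18.2%, 24.1% and 14.8% in WAP+ libraries, 19.0% ± 4.72 (SD, n = 3). For every unit of Ldhb FPKM there were 14.7 and 48.4 of Ldha in Krt6a+ libraries, against 4.504, 3.14 and 5.75 in WAP+ libraries. Ldha here includes its non-coding transcript NR_102727, at 27.9 and 139 in Krt6a+ libraries, against 0, 46.4 and 104 in WAP+ libraries. With coding transcripts only, an alternative chosen after seeing the data, the log2 difference of Ldha was -1.05. The summed FPKM of Ldha and Ldhb was 133 and 312 in Krt6a+ libraries, against 490, 334 and 325 in WAP+ libraries. These shares do not say whether single cells differed in their isozyme makeup. Fabp4 was at 2188, 65.8 and 20.3 in WAP+ libraries 1 to 3 and at 0 in both Krt6a+ libraries. The other 4 adipocyte markers were at 0 throughout. WAP+ library 1 also had the highest sum of the endothelial markers, 8.33. Any part of RNA from adipocytes or other cell types was not tested. As shares of deposited FPKM the isozyme shares do not depend on the scaling between libraries.

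**Figure D2:**
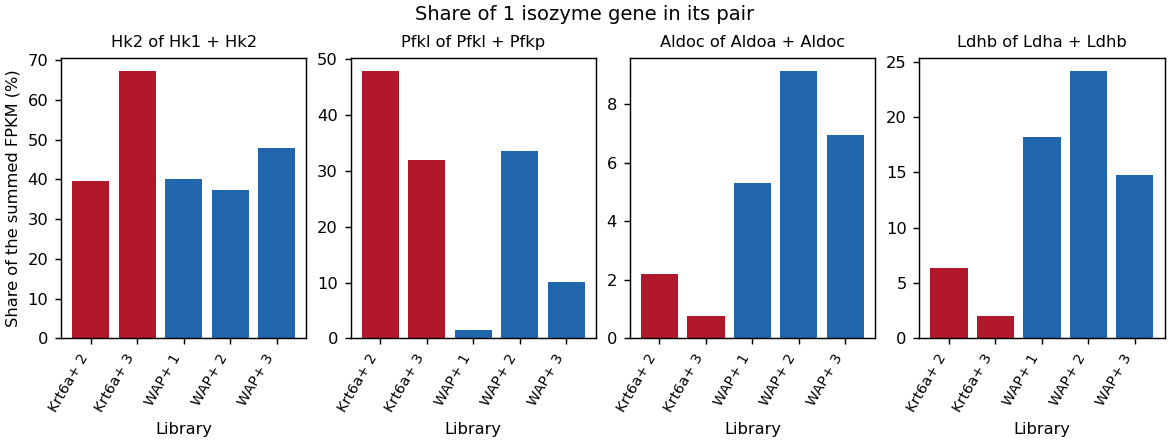
Share (%) of 1 isozyme gene in the summed deposited FPKM of its pair, 1 bar per library, Krt6a+ in red and WAP+ in blue. The Aldoc and Ldhb shares of both Krt6a+ libraries lie below those of all 3 WAP+ libraries (Ldhb 6.37% and 2.02% against at least 14.8%), while the Hk2 and Pfkl shares overlap.

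The promoters of Ldhb and Aldoc are shown because these genes carry the widest gaps, and that of Ldha as the partner of Ldhb. The windows are the 250 bases before the start of the most abundant transcript, from RefSeq on GRCm38.p6, the assembly that mm10 names. Capitals mark ACGTG and GCGTG on either strand, the core letters of the site bound by the hypoxia-inducible factors.
Ldha (chr7:46845554-46845803, plus strand): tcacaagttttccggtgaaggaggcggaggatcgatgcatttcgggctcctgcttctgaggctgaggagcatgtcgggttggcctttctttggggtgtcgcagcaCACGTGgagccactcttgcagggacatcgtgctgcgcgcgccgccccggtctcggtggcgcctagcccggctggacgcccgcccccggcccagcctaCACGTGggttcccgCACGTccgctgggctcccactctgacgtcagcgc
Ldhb (chr6:142507958-142508207, minus strand): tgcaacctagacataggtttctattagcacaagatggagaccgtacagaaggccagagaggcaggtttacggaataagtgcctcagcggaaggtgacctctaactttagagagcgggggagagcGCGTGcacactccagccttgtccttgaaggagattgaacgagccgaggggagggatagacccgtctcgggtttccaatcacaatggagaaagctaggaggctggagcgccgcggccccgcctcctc
Aldoc (chr11:78322823-78323072, plus strand): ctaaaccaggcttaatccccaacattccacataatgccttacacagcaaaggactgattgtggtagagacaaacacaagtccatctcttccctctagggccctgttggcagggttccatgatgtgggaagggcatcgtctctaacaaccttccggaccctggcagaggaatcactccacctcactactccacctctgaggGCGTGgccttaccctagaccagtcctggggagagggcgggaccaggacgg
The Ldha window held 3 stretches with ACGTG, 2 of them within the palindrome CACGTG, while the Ldhb and Aldoc windows held no ACGTG and 1 GCGTG each. ACGTG on either strand occurred in 16.6% of all 32851 RefSeq promoter windows of that length, GCGTG in 28.2% and CACGTG, which contains ACGTG, in 6.0%. Of the 15 windows of the 10 genes 5 held ACGTG (in Slc2a1, Hk2, Aldoa and Ldha), 8 held GCGTG and 1 held CACGTG. Windows of Aldoa overlap, so a site there can count more than once. By gene, 4 of the 10 held ACGTG, 7 held GCGTG and 1 held CACGTG. The GC box GGGCGG was in 8 of the 15 windows, from 7 of the 10 genes, and in 32.7% of all windows. Base composition differs between windows, at 67.2% G and C for Ldha, 56.4% for Ldhb and 55.2% for Aldoc, and a match is a description of the letters only.

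How the FPKM of a gene was shared among its transcripts varied between libraries of the same population, most of all for Aldoa. In WAP+ library 2 all Aldoa FPKM was given to NM_001177308 and in WAP+ library 3 all to NM_007438, while both Krt6a+ libraries gave 60.1% and 63.1% to the former. In WAP+ library 1, 88.5% of Aldoc was given to NM_009657, which was at 0 in every other library. NR_102727, a non-coding transcript of Ldha with the same start as the coding NM_010699, took 22.4% and 45.4% in Krt6a+ libraries, against 0%, 18.3% and 37.6% in WAP+ libraries. Pfkp was the one gene with a split that followed the populations: NM_001291071 was at 3.93 and 6.98 in Krt6a+ libraries and listed at 0 in the 3 WAP+ libraries. Its length and its span are the same as those of NM_019703, so the 2 models share most of their sequence. These transcripts overlap, an exact 0 can be a failed estimate, and sums per gene were therefore used for every comparison. In the GENCODE annotation of mm10 the spans of Slc2a1, Hk1 and Hk2 also overlap antisense genes, and those of Pfkp, Aldoa and Tpi1 overlap Pitrm1, Fam57b and Spsb2, while Pfkl, Aldoc, Ldha and Ldhb overlap no other gene.

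**Figure D3:**
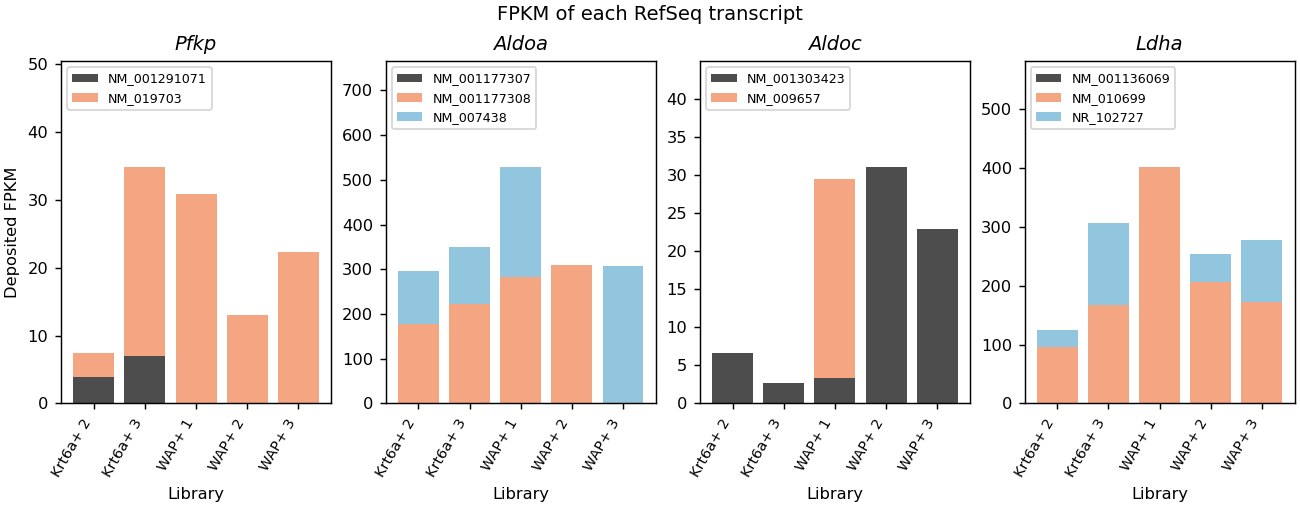
Deposited FPKM of each RefSeq transcript of Pfkp, Aldoa, Aldoc and Ldha, stacked by library. The split differs between libraries of 1 population, as for Aldoa in WAP+ libraries 2 and 3, while the bar heights of Aldoc separate the populations.

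Among the 18 other genes of glycolytic enzymes, 7 had enough signal to be tested and 0 passed in either direction (limma, adjusted over all genes; 0 also at an unadjusted p under 0.05, where 17.1% of all tested genes stood, the share to set beside each such count below). Their median log2 difference was -0.14. This list and the other related lists were also chosen with earlier results of these data known, so calls within them are descriptive. Pkm, the pyruvate kinase of most tissues, had FPKM 87.7 and 160 in Krt6a+ libraries, against 117, 108 and 195 in WAP+ libraries (log2 difference -0.31 ± 0.45 SE, limma, adjusted p = 0.788). Gpi1, which turns glucose 6-phosphate into fructose 6-phosphate, had 18.3 and 35.4 against 23.4, 20.2 and 20.5, and Pgk1, a kinase that makes ATP, 8.596 and 16.8 against 22.0, 10.6 and 7.90 (limma, adjusted p = 0.923 and 0.938). Eno2, the neuronal enolase, reached 11.5 in Krt6a+ library 3 and was at most 1.54 elsewhere, and Eno3, the muscle enolase, was at 0 in both Krt6a+ libraries and 1.51, 1.61 and 0 in WAP+ libraries (limma, adjusted p = 0.535 and 0.496). Pgam1, a mutase, lay between 0.46 and 5.45 in all libraries (limma, adjusted p = 0.860). Gapdh, normally among the most abundant transcripts of any cell, was listed at 0 in 3 libraries and at 1.66 and 1.48 in Krt6a+ library 3 and WAP+ library 2, and Eno1, the common enolase, at 0 in all 5. Gapdh has many processed pseudogenes, and Eno1 has the near-identical copy Eno1b, so values of both genes are uncertain. Eno1b was listed here at 63.5 and 36.4 in Krt6a+ libraries, against 27.9, 31.6 and 44.4 in WAP+ libraries. Gapdh was still among the 7 tested genes despite its low values (limma, adjusted p = 0.929), and Eno1 was not tested. Aldoa, Ldha and Tpi1 may share reads with copies too.

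Of the 12 other glucose transporter genes 3 were tested and 0 passed (limma; 0 at an unadjusted p under 0.05), and 6 were at 0 in all libraries. Slc5a1, a sodium-coupled glucose transporter, was at 1.09 and 3.77 against 1.42, 3.59 and 3.77, Slc2a8 was at 0 and 6.93 against 0, 2.51 and 0, and Slc2a4, the insulin-responsive transporter, was at most 1.85 (limma, adjusted p = 0.853, 0.740 and 0.989). Slc2a1 thus had the highest FPKM of the glucose transporter genes in each library.

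**Figure D4:**
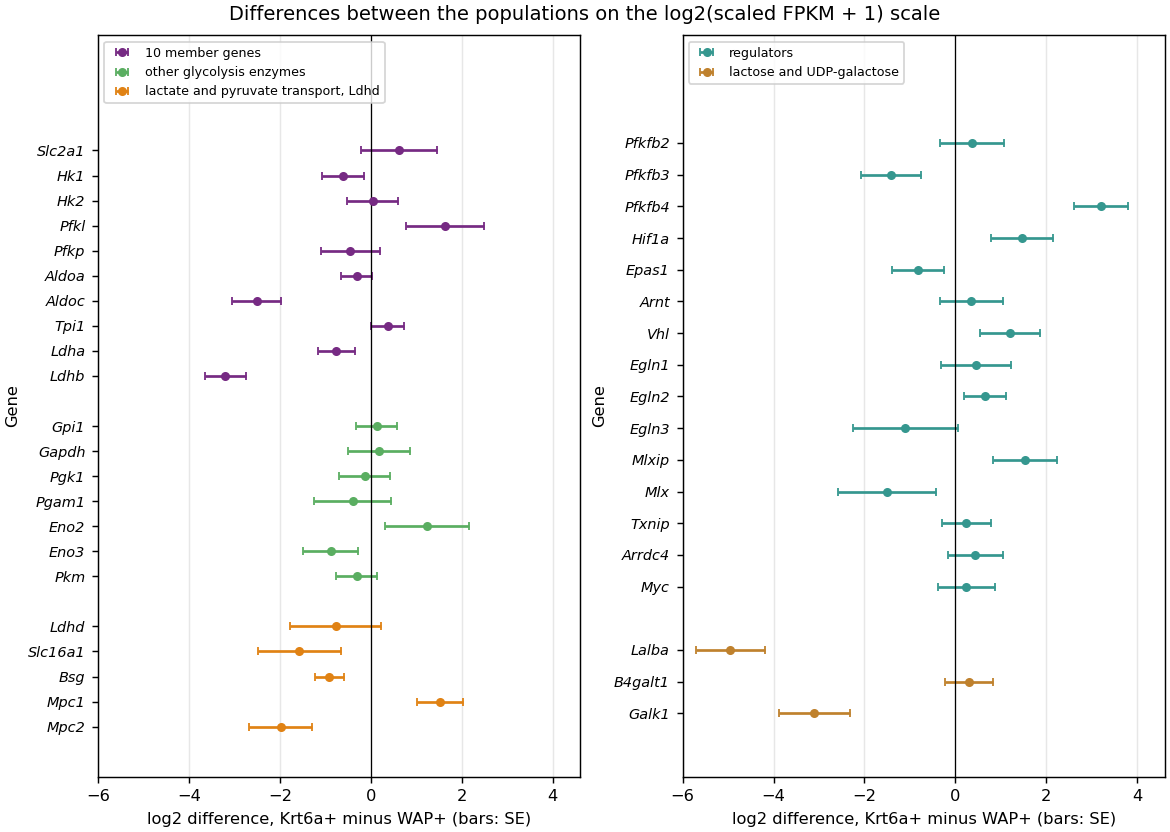
Log2 differences (Krt6a+ minus WAP+, log2(scaled FPKM + 1) scale) of the 10 genes, of the tested genes from 3 related lists and of Lalba, B4galt1 and Galk1, with bars of 1 standard error. Ldhb and Aldoc lie at -3.20 and -2.51, Pfkfb4 at 3.21 and Lalba at -4.95, and the other glycolytic enzymes lie from -0.88 to 1.23.

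Genes that handle lactate and pyruvate after glycolysis also held none past the threshold. In the list of lactate and pyruvate transport and other lactate dehydrogenases, 5 of 10 genes were tested and 0 passed (limma; 3 at an unadjusted p under 0.05, against 17.1% of all tested genes), with a median log2 difference of -0.91. Bsg, the chaperone of the lactate transporters, had FPKM 135 and 164 in Krt6a+ libraries, against 306, 243 and 235 in WAP+ libraries, which did not overlap (log2 difference -0.91 ± 0.32 SE, limma, adjusted p = 0.198). Slc16a1 (MCT1), a lactate transporter, had 0 and 7.23 against 11.1, 4.41 and 6.73 (limma, adjusted p = 0.425), and Slc16a3 (MCT4), which exports lactate, was at 2.10 in WAP+ library 2 and at most 0.30 elsewhere. The mitochondrial pyruvate carrier has a pair of subunits. Mpc2 had 19.1 and 72.7 in Krt6a+ libraries, against 80.0, 261 and 129 in WAP+ libraries, while Mpc1 was at 1.87 and 2.19 but listed at 0 in every WAP+ library, where an exact 0 can be a failed estimate (adjusted p = 0.197 and 0.180, limma). The pyruvate dehydrogenase list covers the gate from pyruvate to the citric acid cycle, and 8 of its 11 genes were tested. Of these 0 passed (limma, with 1 at an unadjusted p under 0.05). Differences were negative for 7 of the 8, against 4863 of all 9682 tested genes, and their median was -0.69. Dld, the E3 subunit of pyruvate dehydrogenase, had 6.36 and 10.6 against 26.7, 16.2 and 20.8 (limma, adjusted p = 0.206). Pdhb, an E1 subunit, had 15.4 and 36.0 against 40.9, 42.3 and 63.9 (limma, adjusted p = 0.312). Pdhx, the E3-binding subunit, was also lower without overlap, at 0 and 1.66 against 4.63, 2.51 and 3.56 (limma, adjusted p = 0.304). Pdha1, the other E1 subunit, was even, at 20.7 and 21.8 against 17.5, 21.2 and 14.7 (limma, adjusted p = 0.915), and the inhibitory kinase gene Pdk1 was under 0.50 in every library.

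Among the regulators, the largest difference was that of Pfkfb4, a bifunctional enzyme that sets fructose 2,6-bisphosphate, the activator of phosphofructokinase. Its FPKM was 29.7 and 55.2 in Krt6a+ libraries, against 5.89, 1.54 and 3.22 in WAP+ libraries, which did not overlap. After scaling, Krt6a+ averaged 38.8 ± 12.9 (SD, n = 2) and WAP+ 3.45 ± 1.71 (SD, n = 3), and the log2 difference of 3.21 ± 0.60 (SE) missed the threshold (limma, adjusted p = 0.0567). It passed in 2 of 16 alternatives, where adjusted p ran from 0.0180 to 0.201. Its paralog Pfkfb3 pointed the other way, at 4.31 and 23.3 in Krt6a+ libraries, against 40.3, 24.9 and 19.7 in WAP+ libraries (limma, log2 difference -1.42 ± 0.65 SE, adjusted p = 0.316); deposited values overlapped and scaled ones did not. Of the 18 regulator genes 15 were tested and 0 passed (limma; 1 at an unadjusted p under 0.05), with a median log2 difference of 0.36. Hif1a, the oxygen-sensing factor that drives many glycolytic genes, had 10.4 and 16.5 against 7.40, 1.40 and 4.52, and Mlxip, a glucose-sensing factor, 9.61 and 25.8 against 10.7, 2.37 and 3.13 (limma, adjusted p = 0.325 and 0.315).

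Of 12 genes induced by low oxygen outside glycolysis 11 were tested and 0 passed (limma). At an unadjusted p under 0.05 stood 2 (limma), against 17.1% of all tested genes. Differences were positive for 9 of the 11, against 4819 of all 9682 tested genes, with a median of 1.36. On scaled values 3 were higher in Krt6a+ without overlap, against 17.4% of all tested genes in that direction. Ndrg1, a stress-induced gene, had FPKM 238 and 1042 in Krt6a+ libraries, against 196, 106 and 240 in WAP+ libraries, and Bnip3l, a mitophagy receptor, 27.5 and 16.4 against 6.73, 5.57 and 8.74 (limma, adjusted p = 0.292 and 0.260). Adm, the vasodilator peptide adrenomedullin, lay the other way, at 0.13 and 5.76 against 35.1, 16.0 and 3.77 (limma, adjusted p = 0.256).

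Paths that draw on glucose 6-phosphate included the 1 gene of the related lists that passed. Of the 6 genes of lactose and UDP-galactose synthesis all were tested, and 1, Lalba, was lower past the threshold, against 0.434% of all tested genes in that direction (limma; 3 at an unadjusted p under 0.05, against 17.1%). Lalba, whose product switches galactosyltransferase to lactose synthesis, was listed at 0 in both Krt6a+ libraries and at 32.0, 64.7 and 12.1 in WAP+ libraries (limma, adjusted p = 0.0448); over 14 alternatives the adjusted p ran from 0.0386 to 0.201 and passed in 6, and without any 1 of the WAP+ libraries or without Krt6a+ library 2 it did not pass. Galk1, the galactokinase, had 0 and 2.75 against 17.0, 24.1 and 7.52 (limma, adjusted p = 0.105). B4galt1, the galactosyltransferase itself, was not lower, at 26.3 and 13.8 against 15.6, 11.4 and 15.6 (limma, adjusted p = 0.827). In the pentose phosphate pathway, which yields NADPH and ribose, 8 of 8 genes were tested and 0 passed (limma; 2 at an unadjusted p under 0.05, against 17.1%), with a median log2 difference of 0.01. G6pdx, its first enzyme, had 36.3 and 21.2 against 29.6, 10.5 and 12.0, Taldo1, the transaldolase, 227 and 196 against 419, 379 and 317, and Tkt, the transketolase, 20.7 and 23.7 against 33.7, 26.9 and 30.7 (limma, adjusted p = 0.572, 0.209 and 0.535). Rpe, the ribulose phosphate epimerase, had 10.5 and 17.7 against 4.80, 2.50 and 3.53 (limma, adjusted p = 0.214). Over all 12 related lists together, 85 of 126 genes were tested, 0 were higher and 1 lower past the threshold (limma; 15 at an unadjusted p under 0.05, against 17.1% of all tested genes), and 35.3% did not overlap between groups, against 34.8% of all tested genes.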

How the data were processed

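Full-length cDNA was amplified from the sorted pools with SMART-Seq v4, made into Nextera libraries and read in pairs, per the labels' protocols; whether each library was a separate mouse is not stated, and p-values thus measure only the scatter among these samples, possibly technical. TopHat and Cufflinks on mm10 are named in the submitters' processing notes, with versions not given in the sources used here. The deposited tables hold, per the file headers, an FPKM value per RefSeq transcript with its lower and upper 95% bounds, and a coverage signal per base, used only for depth. Every status was OK, although an exact 0 of an abundant gene can be a failed estimate.

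FPKM was summed by symbol and divided by a factor per library (0.891 to 1.16), a median of ratios to per-gene geometric means, taken from the 5334 genes that reached FPKM 1 in each library. The 9682 genes at FPKM 1 or more in at least 2 libraries were compared on log2(scaled FPKM + 1), which understates changes of low genes, with limma 3.58.1 in R 4.3.3 (variances moderated toward a trend in mean level; residual degrees of freedom 3, prior 4.88). Two-sided p-values were adjusted by Benjamini-Hochberg over all tested genes, with a threshold of 0.05. An adjusted p given here always comes from this fit. The deposited bounds were taken to cover counting error only.

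The genes and the 12 related lists were chosen with earlier results of these data known. The genes named are the 10 members, Krt6a and Wap, fixed pathway steps, and from each list those past the threshold and up to 3 with the largest moderated statistic; Eno1b and Hk1os, and the marker genes that carry a sum, were named after their values were seen, and 1 gene the rule names is not reported here. Promoter sequences matched all 10 genes.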

Additional observations from a re-analysis of the deposited data

How the results depend on the processing

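The counts over all genes moved with nearly every choice. Against 25 higher and 42 lower genes, a pseudocount of 0.1 gave 6 and 20, no filter 2 and 3, FPKM 1 or more in all 5 libraries 80 and 99, exact 0 treated as missing 73 and 71, and no mean-variance trend 7 and 9. A pseudocount of 5 gave 43 higher, quantile normalization 39 higher, and the deposited FPKM without further scaling 27 lower. With the replicate number as a block (replicate block) 16 were higher and 22 lower. The labels share only the numbers 2 and 3 between the groups and do not say what they mark, so the numbers were taken as names. The deviations of same-numbered libraries correlated at 0.0498 and 0.000252. With 2 Krt6a+ libraries their deviations mirror each other, so these values cannot decide whether a number marks a shared source. Leaving out 1 library gave 2 to 45 higher and 3 to 103 lower, with 2 higher without any 1 of the 3 WAP+ libraries and 45 higher and 103 lower without Krt6a+ library 3; an arm left with 1 library was assumed to vary like the other group. The cause of these shifts was not tested.

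In the related lists, 1 gene in place of 0 was higher, Pfkfb4, with FPKM 1 or more in all 5 libraries and with exact 0 treated as missing. In place of 1, Lalba, 0 genes were lower with a pseudocount of 5, no filter, no mean-variance trend and the replicate block. With any 1 of the WAP+ libraries left out, 0 were lower as well. The fit with FPKM 1 or more in all 5 libraries also gave 0, but Lalba, at 0 in both Krt6a+ libraries, could not enter it. With exact 0 treated as missing Lalba had no Krt6a+ value, and the 1 lower gene was Got1.

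The median log2 difference of the 10 genes ran from -0.65 without Krt6a+ library 3 to 0.15 without Krt6a+ library 2, and was -0.23 with the replicate block. Ldhb passed the threshold in the main fit. It missed the threshold with a pseudocount of 0.1, no filter, no mean-variance trend, the replicate block and without any 1 of the WAP+ libraries. Aldoc passed only with FPKM 1 or more in all 5 libraries, where 80 genes were higher and 99 lower of 5334 tested. Of the other 8 genes 0 passed in any of the 16 alternatives. The 10 genes were chosen with this comparison in view, so these calls describe them only. Ldhb kept its direction in all 16, from -3.47 to -2.68, as did Aldoc (-3.11 to -1.83), Ldha (-1.29 to -0.21), Hk1 (-0.85 to -0.37) and Tpi1 (0.11 to 0.75), and Pfkl did in 15 (0.91 to 2.24). One alternative, coding transcripts only, was chosen after seeing the data. Directions reversed for Hk2 (-0.043 with quantile normalization, -0.065 with the replicate block, -0.48 to 0.57 leaving out 1 library), Aldoa (0.16, quantile), and, leaving out 1 library, Slc2a1 (-0.82 to 2.08) and Pfkp (-1.39 to 0.50).

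Among other genes Pkm was 0.014 with quantile normalization, Slc2a4 -0.0022 with a pseudocount of 5 and -0.38 with exact 0 treated as missing, Gapdh -0.092 with exact 0 treated as missing and -0.046 with the replicate block, and Pgk1 0.14 with the replicate block. Leaving out 1 library, direction was not kept by Eno2 (-0.086 to 2.57), Pkm (-0.63 to 0.024), Slc5a1 (-0.86 to 0.16), Slc2a4 (-0.20 to 0.54), G6pc3 (-1.43 to 0.13), Psph (-2.16 to 0.70), Phgdh (-1.45 to 0.23), Gpi1 (-0.22 to 0.49), Gapdh (-0.051 to 0.84), Pgk1 (-0.48 to 0.22), Pgam1 (-1.23 to 0.45) and B4galt1 (-0.23 to 0.85). With 2 against 3 libraries an exact permutation test cannot go below p = 0.1, so none was used.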

Other observations

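Transfer of cytosolic electrons into mitochondria competes with lactate formation for NADH. In the list of the glycerol phosphate and malate-aspartate shuttles 9 of 10 genes were tested and 0 passed (limma). At an unadjusted p under 0.05 stood 1 (limma), against 17.1% of all tested genes. Differences were negative for 8 of the 9, against 4863 of all 9682 tested genes, with a median log2 difference of -0.67. Got1, the cytosolic aspartate aminotransferase, had FPKM 0.094 and 1.38 in Krt6a+ libraries, against 23.1, 7.88 and 17.3 in WAP+, a log2 difference of -3.36 ± 0.69 (SE) that missed the threshold (limma, adjusted p = 0.0685; 0.0425 to 0.201 over 15 alternatives, past it in 1). Mdh2, the mitochondrial malate dehydrogenase, had 124 and 206 against 342, 218 and 218, and Slc25a13, an aspartate-glutamate carrier, 1.06 and 1.86 against 10.4, 7.08 and 2.57 (limma, adjusted p = 0.309 and 0.303).

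All 3 genes of serine synthesis from 3-phosphoglycerate had negative differences and 0 passed (limma; 1 at an unadjusted p under 0.05; median -0.74). Psat1, the aminotransferase of that route, had FPKM 13.6 and 45.9 in Krt6a+ libraries, against 97.4, 74.8 and 136 in WAP+ libraries, which did not overlap, while Phgdh had 1.77 and 9.21 against 5.14, 3.797 and 13.7 and Psph 3.42 and 36.0 against 22.8, 9.27 and 30.1 (limma, adjusted p = 0.120, 0.753 and 0.723). Of 11 glycogen genes 6 were tested and 0 passed (limma; 0 at an unadjusted p under 0.05; median -0.30). Pgm1 had 15.0 and 29.5 against 19.9, 11.5 and 5.49, and its paralog Pgm2 1.59 and 2.56 against 13.3, 8.21 and 3.16, while Gys1, glycogen synthase, had 4.96 and 5.64 against 8.22, 7.71 and 5.59 (limma, adjusted p = 0.536, 0.315 and 0.725). Of 7 gluconeogenesis genes 4 were tested and 0 passed (limma; 1 at an unadjusted p under 0.05; median 0.57). Fbp2, the muscle-type fructose bisphosphatase, had 34.2 and 2.99 in Krt6a+ libraries, against 0.17, 0 and 0 in WAP+ libraries (limma, adjusted p = 0.132), Pck2 had 8.40 and 14.3 against 11.7, 3.72 and 5.08, and G6pc3 had 5.96 and 2.38 against 4.39, 27.9 and 2.32 (limma, adjusted p = 0.636 and 0.729).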
